A study of Homo sapiens with 12 samples.

Results

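Untreated Z-138 cells were compared with untreated Maver-1 cells, across all genes measured, on 6 of the study's 12 arrays. The arrays were chosen by their labels as those with 0 ng/ml doxycycline, 3 of Z-138 and 3 of Maver-1. Both are established human lines from mantle cell lymphoma, which is a tumour of B cells. Per the labels, TRAF2 carries a nonsense mutation in Z-138, and TRAF3 is deleted in Maver-1. In each line 1 culture carried a non-targeting control hairpin (NTC) and 2 cultures carried hairpins targeting NIK (the kinase encoded by MAP3K14), named NIKsh#1 and NIKsh#2. The hairpins are switched on by doxycycline, so in all 6 untreated cultures they were present but not induced. All cells, controls included, were kept under 0.5 ug/ml puromycin, grown for 7 days and returned to fresh medium every 3 days. The other 6 arrays came from the same cultures with 100 ng/ml doxycycline, so that 4 of them carried an induced hairpin against MAP3K14. Each genotype is represented by 1 line, so every difference given is between these lines and cannot be told apart into effects of TRAF2, of TRAF3 and of all else that distinguishes them. The 3 cultures of a line are derivatives of that line, and p-values measure only the spread between them.

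Mantle cell lymphoma arises from mature B cells and is driven in most cases by cyclin D1, placed next to the immunoglobulin heavy chain locus by a translocation. In the alternative NF-kB pathway, receptors such as CD40 and the BAFF receptor act through NIK, which activates the kinase IKK alpha (CHUK) and leads to processing of NFKB2 into the partner of RELB. TRAF2, TRAF3 and the ubiquitin ligases BIRC2 and BIRC3 form the complex that marks NIK protein for degradation in resting B cells. NIK is thus controlled largely as protein, which the RNA measured here does not show.

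The deposited signal is linear and in arbitrary units. In what follows a difference is Z-138 minus Maver-1 in log2(signal + 3) ± the standard error of limma's model, so that a positive value is higher in Z-138 and 1 is close to 2-fold for bright genes. Signals are listed in the order NTC, NIKsh#1, NIKsh#2. A gene is said to be at the floor where its signal was under 12.55 (the 12 arrays' medians, themselves summarised by their median), and differences against such signals understate the change.

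The 6 arrays had the same trimmed mean, and their median signals lay between 11.7 and 12.7 in Z-138 and between 11.7 and 13.1 in Maver-1. Over the 11548 genes tested, arrays of the same line correlated at 0.989 to 0.9925, and arrays of different lines at 0.8515 to 0.8628, a description across genes, which are not independent replicates. Between 0.935% and 1.4% of genes were 2-fold apart within a line and 20.4% to 24.9% between lines. RNA quality moved with the line. For ACTB the 3' to 5' signal ratio, which rises as RNA is degraded or copied incompletely, was 2.33 to 2.92 in Z-138 (mean 2.70 ± 0.328 SD, n = 3) and 3.66 to 6.88 in Maver-1 (5.07 ± 1.65 SD, n = 3). The GAPDH ratio was 1.15 to 1.30 in Z-138 and 1.54 to 2.39 in Maver-1. Neither ratio overlapped, and the exact two-sided permutation test gave p = 0.1 for both, the smallest that 3 against 3 allows. With doxycycline the ACTB ratio was higher in Z-138, at 4.62 to 6.34, than in Maver-1, at 3.80 to 4.43 (exact two-sided permutation p = 0.1). The GAPDH ratio overlapped there, at 1.36 to 2.00 in Z-138 and 1.42 to 1.68 in Maver-1 (exact p = 0.5), so of the ratios that of ACTB turned. The part of the ratio in any single difference was not tested, and a fit over all 12 arrays with the ratio as a term is among the alternatives given at the end.

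**Figure D1:**
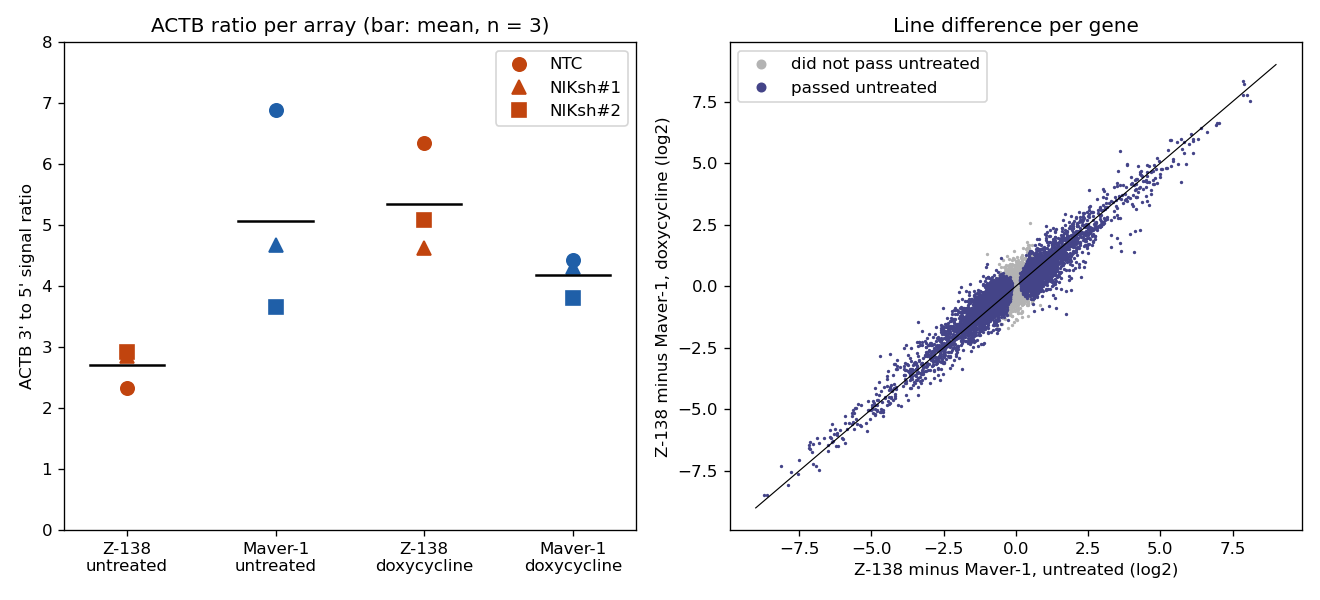
Left, the ACTB 3' to 5' signal ratio of each array (y axis, no unit), with colour for the line, a symbol for each construct and a bar for the mean of 3 arrays; untreated Maver-1 lies above untreated Z-138, and the order is reversed with doxycycline. Right, each of the 11548 genes by its Z-138 minus Maver-1 difference on the untreated (x axis) and doxycycline (y axis) arrays, both in log2 units, with the line of equality; the points correlated at 0.94.

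Both lines carried the B cell markers. In RNA from whole cultures, fewer cells expressing a gene and less RNA per cell cannot be told apart. MS4A1 (CD20), CD79A, CD79B, PAX5, CD74, HLA-DRA and POU2AF1 were over 100 on every untreated array of both lines, and the 9 markers measured summed to 15300.3 to 15895.7 in Z-138 and 16751.9 to 17965.2 in Maver-1. CD22 and CD37, the others measured, were dimmer, not over 100 on every array of either line, and are given below. Markers of T and NK cells summed to 638.6 to 757.0 in Z-138 and 374.3 to 400.3 in Maver-1, over 21 genes, with the defining genes CD3D, CD3E and CD2 at the floor in both. PRF1 was over 100 on every array of both lines, and CD3G and LCK on every Z-138 array. Monocyte and granulocyte markers, over 11 genes, summed to 37.4 to 44.7 in Z-138 and 79.3 to 99.1 in Maver-1, with CD14, MPO and S100A8 at the floor. Markers of fibroblasts, epithelium and endothelium, over 14 genes, summed to 436.9 to 557.8 in Z-138 and 1017.7 to 1182.1 in Maver-1, with COL1A2, VWF and CDH1 at the floor in both. PECAM1 was over 100 on every array of both lines, COL1A1 on every Z-138 array and EPCAM on every Maver-1 array.

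The lines differed widely. In all, 6956 of 11548 genes passed the limma test at an adjusted p under 0.05 (60.2%), of which 2939 were higher in Z-138 (25.5%) and 4017 higher in Maver-1 (34.8%). The median difference over all genes was -0.083. At least 2-fold differences were called for 955 genes higher in Z-138 (8.27%) and 1415 higher in Maver-1 (12.3%), and at least 16-fold differences for 91 (0.788%) and 130 (1.13%). For 7599 genes (65.8%) the 3 arrays of one line all lay above the 3 of the other. For 4159 genes (36%) the 95% interval of the difference lay within 1.5-fold either way. Of the 227 called genes named in the text, 126 had more than 1 probe set above the floor, and in 13 of them such a probe set had the opposite sign: CASP8, CCND1, DERL3, HLA-DQA1, IFNAR1, IFNAR2, IKZF1, IRF5, NFKB2, REL, RIGI, STAT3 and ZNF431. Between the untreated lines, 62 genes were at the floor in every Maver-1 array and over 100 in every Z-138 array, and 93 genes showed the opposite pattern.

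The genes furthest above Maver-1 in Z-138 came from many different functions. LMO3, a LIM-domain cofactor of transcription, had signals of 856, 862 and 1013 in Z-138 and 0.5, 0.3 and 0.2 in Maver-1. APP, the amyloid precursor protein, had 2154, 2164 and 2098 and 9.8, 3.3 and 4.1. ROBO1, a receptor for the guidance protein SLIT, had 1341, 1546 and 1370.0 and 2.7, 4.4 and 2.2. These genes were bright on every Z-138 array and at the floor on every Maver-1 array, with differences of 8.10 ± 0.17, 8.01 ± 0.22 and 7.88 ± 0.17 (limma adjusted p = 1.31e-12, 1.04e-11 and 1.42e-12). FGF9, a secreted growth factor, differed by 7.87 ± 0.20, with 967, 1008 and 796 in Z-138 and 1.6, 1.4 and 0 in Maver-1. NIBAN1, a stress-induced regulator of translation, differed by 7.85 ± 0.18. IGKC, the constant region of the immunoglobulin kappa light chain, had 613, 663 and 1275 in Z-138 and 7.3, 1 and 2.9 in Maver-1. The NIKsh#2 culture of Z-138 was the brightest for IGKC, and the difference of 7.01 ± 0.33 rested on the 1 of its 8 probe sets that was above the floor. The RNA-binding protein IGF2BP1 followed at 6.91 ± 0.24, the bile acid carrier FABP6 at 6.61 ± 0.15, the membrane glycoprotein podoplanin (PDPN) at 6.14 ± 0.17, C9orf72 at 6.30 ± 0.20 and MCCC1, a subunit of the mitochondrial carboxylase of leucine breakdown, at 6.06 ± 0.20. SCML1, a Polycomb-like protein of chromosome X, stood at 6.95 ± 0.21, and NUDT11, an inositol pyrophosphate phosphatase, at 6.41 ± 0.21. TRAF3 and AMOTL1, described below with their pathway and their neighbours, complete the 15.

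**Figure D2:**
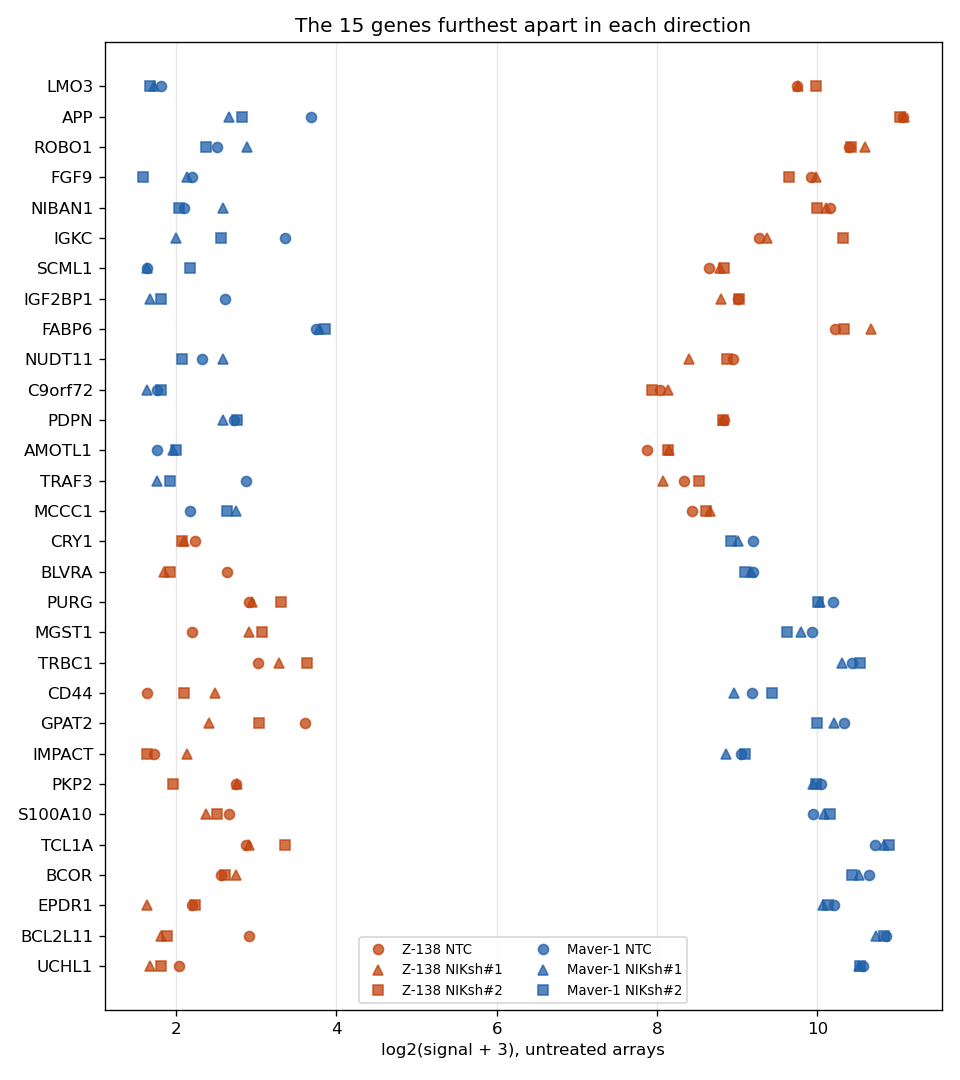
Signal of the 15 genes furthest apart in each direction (y axis, 1 gene a row) on each untreated array, as log2(signal + 3) on the x axis; colour gives the line and the symbol the construct. In every row the 3 arrays of one line lie under 4 and the 3 of the other over 7.5.

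The genes furthest above Z-138 in Maver-1 were led by UCHL1, a deubiquitinase best known from neurons. Its signals were 1.1, 0.2 and 0.5 in Z-138 and 1520.0, 1464 and 1474 in Maver-1, a difference of -8.70 ± 0.16 (limma adjusted p = 7.51e-13). BCL2L11, which encodes the pro-apoptotic BH3 protein BIM, had 4.5, 0.5 and 0.7 in Z-138 and 1852, 1705 and 1813 in Maver-1. All 7 probe sets of BCL2L11 lay lower in Z-138, by -2.96 to -8.61, and on the Z-138 arrays the brightest value of any of the 7 was 11.9, under the floor. EPDR1, an ependymin-related protein, differed by -8.12 ± 0.19. BCOR, the corepressor that binds BCL6, had 2.9, 3.7 and 3.1 in Z-138 and 1593, 1461 and 1375 in Maver-1, and its 4 probe sets all pointed the same way. TCL1A, a coactivator of AKT kinases expressed in B cells, had 4.3, 4.5 and 7.3 and 1684, 1813 and 1895. CD44, the hyaluronan receptor, had 0.1, 2.6 and 1.3 and 578, 495 and 686, with 6 of 6 probe sets above the floor lower in Z-138. TRBC1, the constant region of the T cell receptor beta chain, had 5.1, 6.7 and 9.4 and 1381, 1265 and 1473; its probes may also read the nearly identical TRBC2. The remaining genes were S100A10, the partner of annexin A2, at -7.55 ± 0.16, plakophilin PKP2 at -7.50 ± 0.21, the translation regulator IMPACT at -7.17 ± 0.20, the acyltransferase GPAT2 at -7.17 ± 0.24, the glutathione transferase MGST1 at -7.06 ± 0.22, PURG at -7.03 ± 0.16, the biliverdin reductase BLVRA at -7.02 ± 0.22 and the circadian repressor CRY1 at -6.91 ± 0.18. For none of these 30 genes did a probe set above the floor go against the one used, though 12 of the 30 had only 1 such probe set.

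Counts in the gene lists that follow stand beside a background of 25.5% of all tested genes called higher in Z-138 and 34.8% in Maver-1, and the lists carry no test of their own. In the alternative NF-kB list, 13 of 16 measured genes passed the filter on low signal, 3 were called higher in Z-138 and 7 higher in Maver-1, with a median difference of -0.55. TRAF3, the adaptor that brings NIK to its degradation complex, had 321, 266 and 365 in Z-138 and 4.3, 0.4 and 0.8 in Maver-1, a difference of 6.12 ± 0.27 (limma adjusted p = 7.21e-10). The second probe set of TRAF3 had 191, 206 and 264 in Z-138 and 0.7, 1.6 and 5.7 in Maver-1. TRAF3 RNA was thus at the floor in every untreated culture of the line whose label gives its deletion. TRAF2 and BIRC3 were not analysed here. BIRC2, the ubiquitin ligase cIAP1 of the same complex, had 169, 214 and 213 in Z-138 and 331, 289 and 279 in Maver-1 (-0.59 ± 0.13). OTUD7B, a deubiquitinase that restrains the pathway by sparing TRAF3, was higher in Z-138, with 204, 162 and 172 against 44.4, 60.9 and 51.2 (1.73 ± 0.16, adjusted p = 1.1e-06).

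MAP3K14 itself had 46.4, 55.2 and 52.0 in Z-138 and 77.2, 86.9 and 79.3 in Maver-1, a difference of -0.64 ± 0.16 (limma adjusted p = 0.00401). The NIKsh cultures, with the hairpins uninduced, had no less MAP3K14 signal than the NTC culture of their line. CHUK, the kinase below NIK, was also lower in Z-138, with 373, 491 and 479 against 675, 661 and 620.4 (-0.55 ± 0.11). NFKB2, the precursor that the pathway processes, had 114, 145 and 128 in Z-138 and 197, 219.9 and 179 in Maver-1 at its brightest probe set (-0.61 ± 0.14). A dimmer probe set of NFKB2 gave 0.38, with arrays of the lines overlapping. RELB, the partner of processed NFKB2, did not pass, at 0.42 ± 0.18 (adjusted p = 0.0566), although its arrays did not overlap, with 90.2, 68.0 and 74.8 in Z-138 and 54.3, 66.9 and 50.8 in Maver-1.

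Among the receptors and ligands of the pathway, CD40 had 103, 95.4 and 73.8 in Z-138 and 191, 201 and 209 in Maver-1 (-1.13 ± 0.15, limma adjusted p = 2.64e-05), lower in all 3 Z-138 cultures. TNFRSF17, the receptor BCMA, was higher in Z-138 by 0.37 ± 0.07, with 2469, 2510.0 and 2786 against 1937, 2059 and 2013. The receptors TACI (TNFRSF13B) and BAFF receptor (TNFRSF13C) did not pass and overlapped, at -0.13 ± 0.29 and -0.08 ± 0.33. The 95% interval of TNFRSF13C, -0.80 to 0.64, does not exclude a 1.5-fold difference in either direction. The lymphotoxins were lower in Z-138, LTA at 6.1, 4.4 and 1.3 against 27.7, 45.7 and 41.7 (-2.62 ± 0.31) and LTB at 24.2, 20.3 and 18.9 against 36.9, 39.3 and 25 (-0.59 ± 0.23, adjusted p = 0.0377). The lymphotoxin receptor LTBR and the ligands TNFSF13 and TNFSF13B were below the filter. TNFSF13 signals were 4.3 to 5.2 in Z-138 and 10.4 to 16.1 in Maver-1.

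Of the 22 canonical NF-kB components, 5 were higher in Z-138 and 11 higher in Maver-1, with a median of -0.20. Among the activating side, IKBKG (NEMO, the scaffold of the IKK complex) had 54.6, 56.5 and 61.0 in Z-138 and 182, 168 and 137 in Maver-1 (-1.45 ± 0.15), and IRAK1, a kinase of Toll-like receptor signalling, had 784, 1048 and 993 and 2517, 2315 and 2139 (-1.31 ± 0.10). Both genes lie on chromosome X, IKBKG inside a run of neighbours that all moved the same way. The other probe set of IRAK1 stood at only -0.17. TAB1, a partner of the kinase TAK1, was lower in Z-138 by -1.05 ± 0.14, and the subunits NFKB1 and REL by -0.83 ± 0.11 and -0.83 ± 0.10. RELA was higher in Z-138 by 0.23 ± 0.09. Of the restraining enzymes, the deubiquitinase CYLD was lower in Z-138, with 258, 236 and 267 against 616, 605 and 586 (-1.24 ± 0.10). TNFAIP3 (A20) was higher, with 710.1, 736 and 696 against 307, 324 and 317 (1.17 ± 0.09, limma adjusted p = 1.97e-07), as were the inhibitors NFKBIA and NFKBIE, at 0.43 ± 0.11 and 0.65 ± 0.14. TAB2, at 0.65 ± 0.09, was the remaining gene called higher in Z-138. BCL10 and MAP3K7 (TAK1) were alike in the lines, with intervals of -0.01 to 0.33 and -0.07 to 0.33. TNIP2 was lower in Z-138 by -0.93 ± 0.16 on the untreated arrays and stood at 0.33 on the doxycycline arrays.

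The NF-kB target list was divided, with 13 of 32 higher in Z-138 and 13 higher in Maver-1, and a median of 0.057. CCL4, a chemokine, had 178, 208 and 221 in Z-138 and 2.7, 4.6 and 7.3 in Maver-1 (4.74 ± 0.23). IL10, an anti-inflammatory cytokine, had 48.1, 79.7 and 63.9 and 0.9, 1.1 and 0.4 (4.12 ± 0.26), and CD80, a costimulatory ligand, 71.7, 58.2 and 92.9 and 1.3, 5.5 and 9.9 (3.29 ± 0.34). All 3 genes were at the floor in Maver-1. ICAM1, an adhesion molecule, had 259, 270.2 and 250.3 and 59.8, 66.4 and 46.3 (2.13 ± 0.15). On the Maver-1 side stood CD44, LTA and CD40, described above, and STAT5A at -1.14 ± 0.20. SOD2 was the closest match, with 2224, 2321 and 2254 in Z-138 and 2229, 2250.0 and 2327 in Maver-1 and an interval of -0.13 to 0.12. TRAF1 and BCL2A1, other targets, were below the filter, TRAF1 with 5.6, 2.6 and 2.3 in Z-138 and 22.4, 21.3 and 21.2 in Maver-1.

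The promoters of the targets bore on the division only as a description. In the 250 bases before the start of each gene in RefSeq (GRCh38.p14), the letters GGGANNTTC, most of a kappa B motif, searched on both strands, occurred in 8 of 25 target promoters (32.0%), against 3.44% of the 9472 tested genes with a promoter in the table. They were found in 2 of 9 genes higher in Z-138 (22.2%) and in 5 of 11 higher in Maver-1 (45.5%). TNFAIP3, higher in Z-138, and LTB, higher in Maver-1, are shown 5' to 3' on the gene's strand with the match in capitals, as 1 example of each direction: TNFAIP3 at chr6:137867009-137867258 on the plus strand and LTB at chr6:31582426-31582675 on the minus strand. A match is not a site shown to be used.
TNFAIP3: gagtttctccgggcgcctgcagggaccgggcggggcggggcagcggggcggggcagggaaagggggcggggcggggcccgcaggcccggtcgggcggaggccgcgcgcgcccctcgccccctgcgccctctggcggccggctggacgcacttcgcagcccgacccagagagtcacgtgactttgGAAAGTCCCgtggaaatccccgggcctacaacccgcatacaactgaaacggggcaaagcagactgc
LTB: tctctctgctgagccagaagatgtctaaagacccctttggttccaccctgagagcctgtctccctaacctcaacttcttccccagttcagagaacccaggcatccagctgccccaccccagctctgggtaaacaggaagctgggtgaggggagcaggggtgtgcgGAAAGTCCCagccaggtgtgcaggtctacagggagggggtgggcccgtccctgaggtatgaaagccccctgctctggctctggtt

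Genes of B cell identity and antigen receptor signalling were mostly higher in Maver-1, 28 of 40 against 6 higher in Z-138, with a median of -0.771 and 6 genes that did not pass. TCL1A, given above, was the furthest. MME (CD10), a surface peptidase of germinal centre and precursor B cells, had 1.1, 4.8 and 1.3 in Z-138 and 216, 164 and 128 in Maver-1 (-5.03 ± 0.28). RAG1, the recombinase of immature lymphocytes, had 9.1, 11.2 and 14.6 and 223, 371 and 316 (-4.38 ± 0.21). CD5, a surface protein that most mantle cell lymphomas carry, had 0.8, 0.9 and 0.7 and 41.9, 50.3 and 70.8 (-3.88 ± 0.27). Of these, MME and CD5 were at the floor on every Z-138 array, and RAG1 was under 15 on all of them. MME and CD5, like TCL1A, passed the filter on low signal through Maver-1 alone, so the direction of the list's count is partly set by the filter. RAG2, the partner of RAG1, and BCL6, the germinal centre repressor, differed by -3.37 ± 0.29 and -3.73 ± 0.21. The Fc receptor-like genes FCRL1 and FCRL2 differed by -4.24 ± 0.33 and -4.46 ± 0.19. CD22, an inhibitory co-receptor, had 44.4, 29.4 and 30.0 in Z-138 and 95.6, 87.2 and 97.6 in Maver-1 (-1.38 ± 0.19), and CD37 had 66.3, 57.4 and 60.3 and 97.7, 176 and 221 (-1.31 ± 0.24). The kinases BTK, LYN, BLK and SYK were lower in Z-138 by -0.82 ± 0.10, -0.80 ± 0.07, -0.66 ± 0.21 and -0.47 ± 0.10, and the phospholipase PLCG2 by -0.98 ± 0.11. BLK stood at 0.01 on the doxycycline arrays.

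PAX5, a transcription factor of B cell identity, was higher in Z-138, with 559, 546 and 835 against 365, 421 and 414 (0.66 ± 0.15, limma adjusted p = 0.00159), the highest in NIKsh#2. The coactivator POU2AF1 differed by -0.28 ± 0.06, with 3028, 3259 and 3029 in Z-138 and 3881, 3635 and 3760.0 in Maver-1. EBF1 and IKZF1 were slightly higher in Z-138 at 0.24 ± 0.08 and 0.22 ± 0.07. MS4A1 was lower in Z-138 by -0.30 ± 0.06 and CD79B by -0.35 ± 0.12. CD79A, its partner in the antigen receptor, did not pass (-0.15 ± 0.09). FCER2 (CD23) was the member furthest towards Z-138, at 1.80 ± 0.26.

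The plasma cell list leaned the other way, with 11 of 18 higher in Z-138, 3 higher in Maver-1 and a median of 0.352. SDC1 (CD138), the surface marker of plasma cells, had 1841, 1719 and 1629 in Z-138 and 262, 384 and 277 in Maver-1 (2.50 ± 0.13, limma adjusted p = 2.6e-09). PRDM1 (BLIMP1), the repressor that drives plasma cell differentiation, had 1004, 923 and 807 and 254, 292 and 259 (1.75 ± 0.11). FKBP11, an isomerase of the secretory pathway, had 1683, 1678 and 1658 and 565, 541 and 469.9 (1.67 ± 0.09). All 3 were higher in each Z-138 culture than in any Maver-1 culture. XBP1, the factor that expands the secretory apparatus, went against them, with 666, 744 and 691 in Z-138 and 1190.0, 1139 and 1090.0 in Maver-1 (-0.70 ± 0.08). DERL3, of the degradation pathway of the endoplasmic reticulum, and ELL2, an elongation factor, were also lower in Z-138, at -0.75 ± 0.17 and -0.62 ± 0.10, though for DERL3 the other 2 probe sets stood at 0.01 and 0.23. The joining chain JCHAIN differed by 0.34 ± 0.05, and PDIA4 was alike (-0.23 to 0.04). IRF4, shared with the NF-kB target list, was higher in Z-138 by 0.53 ± 0.11.

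The MHC class II list had 1 gene far apart, CTSH. Of 17 genes, 3 were higher in Z-138 and 9 in Maver-1, with a median of -0.151, and 11 had an interval inside 1.5-fold. Cathepsin H (CTSH) had 55.9, 53.8 and 54.6 in Z-138 and 1041, 1060.0 and 947 in Maver-1 (-4.14 ± 0.11). HLA-DMB, a peptide exchange chain, was lower in Z-138 (-1.0 ± 0.10), and HLA-DOB, which inhibits that exchange, was higher (0.98 ± 0.15). The other probe set of HLA-DOB stood at 0.10. On the doxycycline arrays HLA-DOB differed by 0.33, and the lines overlapped. HLA-DPA1 differed by -0.44 ± 0.06. HLA-DQA1 depended on the probe set: 2 probe sets gave -0.72 and -0.57, while another read 1053, 963 and 854 in Z-138 and 8.9, 13.1 and 8.2 in Maver-1. HLA-DQA1 is polymorphic, and how far its probe sets bind each line's alleles was not tested. The remaining genes called higher in Z-138 were RFXANK, part of the RFX complex on class II promoters, at 0.65 ± 0.16, and HLA-DPB1 at 0.25 ± 0.08 (-0.04 with doxycycline). CD74 differed by -0.15 ± 0.06, and by 0.07 on the doxycycline arrays.

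MHC class I genes were mostly higher in Maver-1, 12 of 19 against 1, with a median of -0.286. TAP1, a subunit of the peptide transporter, had 316, 411 and 398 in Z-138 and 1283, 1085 and 1154 in Maver-1 (-1.65 ± 0.11). NLRC5, the activator of class I genes, had 211, 259.7 and 280.4 and 596, 603 and 538 (-1.21 ± 0.12). HLA-C and HLA-E were lower in Z-138 by -0.51 ± 0.06 and -0.49 ± 0.08. Probe sets of the class I heavy chains may read several of these similar genes. The exception was ERAP2, a peptidase that trims class I peptides, with 894, 781 and 909 in Z-138 and 202, 218 and 205 in Maver-1 (2.03 ± 0.10). B2M, the light chain, differed by -0.14 ± 0.05 with an interval of -0.25 to -0.03.

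The interferon response list stood furthest towards Maver-1 of the lists with over 5 genes tested. Smaller lists had lower medians: fibroblast, epithelial and endothelial markers -1.475 (5 tested), monocyte and granulocyte markers -1.761 (3) and cancer-testis antigens -2.522 (2). Of 27 genes, 24 were higher in Maver-1, 2 in Z-138, 16 at least 2-fold higher in Maver-1, and the median was -1.442. HERC5, the ligase that attaches ISG15 to proteins, had 0.4, 0.7 and 0.7 in Z-138 and 191, 224 and 222 in Maver-1 (-5.90 ± 0.20, limma adjusted p = 7.3e-11). IFI44, an antiviral protein, had 2, 6.2 and 6.2 and 323, 334 and 370.1 (-5.52 ± 0.23). OAS2, which makes the activator of RNase L, had 15.4, 8.8 and 11.6 and 269, 291 and 328 (-4.34 ± 0.19). HERC5 and IFI44 were at the floor in every Z-138 culture and clearly above it in every Maver-1 culture. They passed the filter on low signal through Maver-1 alone, so the direction of the list's count is partly set by the filter. The XIAP antagonist XAF1 differed by -3.43 ± 0.20 and IFIT2, a binder of foreign RNA, by -3.13 ± 0.19. MX2 was detected in both lines, with 73.4, 68.9 and 78.6 in Z-138 and 743, 716 and 682 in Maver-1 (-3.23 ± 0.12). Its relative MX1 was higher in Z-138, with 109, 106 and 143 against 77.4, 58.5 and 42.4 (1.00 ± 0.21), and so was OASL, with 53.5, 43.6 and 47.9 against 13.9, 10.8 and 9.1 (1.86 ± 0.22).

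Sensors and factors upstream in that list also lay on the Maver-1 side, the RNA sensors RIGI and IFIH1 at -1.44 ± 0.18 and -0.97 ± 0.11 (with a dimmer probe set of RIGI at 1.40), and the factors IRF7 and IRF9 at -0.80 ± 0.21 and -0.52 ± 0.19. IRF9 stood at 0.07 on the doxycycline arrays. ISG15, a ubiquitin-like protein, stood at -0.93 ± 0.11. SAMD9 differed least among the genes called, with 363, 351 and 376 in Z-138 and 440.0, 469 and 472 in Maver-1 (-0.34 ± 0.10). IFI27 did not pass (-0.33 ± 0.28). IFIT1 was below the filter with 3.2, 1.8 and 1.5 in Z-138 and 14.8, 8.4 and 19.6 in Maver-1, and RSAD2 and IFI44L were at the floor in both lines. Of the receptor chains, IFNAR1 and IFNAR2 differed by -0.78 ± 0.13 and -0.27 ± 0.10. On the doxycycline arrays the median of the list was -1.416, and 19 of its genes were called there in the same direction.

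The letters GAAANNGAA, most of the core of the interferon-stimulated response element, were searched on both strands of the same 250 bases. They were present in 12 of the 20 interferon-list promoters in the table (60.0%), in 11 of the 18 genes higher in Maver-1 (61.1%), in 5.6% of the tested genes and in 7.06% of all 27305 promoters. HERC5 and IFI44 are shown as the genes furthest apart, IFIH1 as a sensor and SAMD9 as a gene with a match that differed little. Matches on either strand are in capitals, and overlapping matches run together. HERC5 is at chr4:88456869-88457118 (plus), IFI44 at chr1:78649539-78649788 (plus), IFIH1 at chr2:162318685-162318934 (minus) and SAMD9 at chr7:93117980-93118229 (minus), each 5' to 3' on the gene's strand.
HERC5: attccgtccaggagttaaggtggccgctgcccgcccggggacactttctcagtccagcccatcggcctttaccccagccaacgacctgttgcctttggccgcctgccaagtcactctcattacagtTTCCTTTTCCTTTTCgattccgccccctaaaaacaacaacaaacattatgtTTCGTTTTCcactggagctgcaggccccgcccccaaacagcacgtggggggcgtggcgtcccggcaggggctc
IFI44: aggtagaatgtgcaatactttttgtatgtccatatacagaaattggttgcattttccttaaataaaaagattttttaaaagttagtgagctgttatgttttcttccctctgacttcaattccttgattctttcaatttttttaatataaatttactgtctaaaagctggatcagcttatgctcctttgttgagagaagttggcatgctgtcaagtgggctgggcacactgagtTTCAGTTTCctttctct
IFIH1: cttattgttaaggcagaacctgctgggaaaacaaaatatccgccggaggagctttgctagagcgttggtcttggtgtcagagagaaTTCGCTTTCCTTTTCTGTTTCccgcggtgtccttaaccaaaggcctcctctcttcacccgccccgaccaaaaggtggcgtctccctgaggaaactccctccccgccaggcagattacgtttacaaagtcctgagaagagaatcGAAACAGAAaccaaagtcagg
SAMD9: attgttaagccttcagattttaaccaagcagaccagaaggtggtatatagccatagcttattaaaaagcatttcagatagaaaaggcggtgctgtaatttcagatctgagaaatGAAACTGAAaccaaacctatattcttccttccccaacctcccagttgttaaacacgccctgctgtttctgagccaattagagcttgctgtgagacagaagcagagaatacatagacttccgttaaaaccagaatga
IFIH1 held 4 matches and HERC5 3, and IFI44 and SAMD9 held 1 each, so the number of matches did not follow the size of the difference among these examples.

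Toll-like receptors and their partners were higher in Maver-1 for 7 of 10 genes and in Z-138 for 1, with a median of -0.83. CD180, a B cell relative of TLR4, had 49.9, 44.5 and 67.2 in Z-138 and 175, 168 and 185 in Maver-1 (-1.67 ± 0.17), and TLR10 had 55.7, 37.2 and 56.6 and 143, 135 and 195 (-1.61 ± 0.20). TLR1 and TLR6, which lie beside TLR10 on chromosome 4, differed by -0.64 ± 0.14 and -1.04 ± 0.25. TLR7, a sensor of single-stranded RNA, was the gene higher in Z-138 (0.63 ± 0.11). TLR4 passed at -1.37 ± 0.38, although its arrays overlapped, with 8.5, 9.3 and 18.2 in Z-138 and 15.8, 43.5 and 55.9 in Maver-1. IRF5 stood at -1.02 ± 0.14 at its brightest probe set and at 0.95 at a dimmer one.

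Cytokine receptors and JAK-STAT genes were called in both directions, 7 of 24 higher in Z-138 and 13 in Maver-1, with a median of -0.348. SOCS3, a feedback inhibitor of STAT3 signalling, had 187, 206 and 199 in Z-138 and 12.1, 7.6 and 9.1 in Maver-1 (4.01 ± 0.19). IL6ST (gp130), the signal chain of the IL-6 receptor family, had 556, 575 and 606 and 99.8, 82.7 and 114 (2.52 ± 0.13). STAT3 was higher in Z-138 by 0.51 ± 0.14, on the same side as SOCS3 and IL6ST, but stood at -0.21 on the doxycycline arrays. CSF2RB, the shared beta chain of the IL-3, IL-5 and GM-CSF receptors, had 413, 459 and 414 in Z-138 and 112, 144 and 113 in Maver-1 (1.79 ± 0.13). On the Maver-1 side IL10RA, the receptor of IL-10, had 30.9, 47.1 and 34.9 against 156, 134 and 152 (-1.91 ± 0.18), while its ligand IL10 was the gene higher in Z-138 above. IL7R and IL4R differed by -1.90 ± 0.33 and -1.56 ± 0.15. IL2RG, the common gamma chain, did not pass (-0.17 ± 0.09, interval -0.35 to 0.02).

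Among chemokines and homing genes, 4 of 14 were higher in Z-138 and 8 in Maver-1, with a median of -0.402. ITGAL and ITGB2, the alpha and beta chains of the integrin LFA-1, had 7.9, 3.9 and 4.6 and 10.0, 1.4 and 1.8 in Z-138 and 66.5, 70.5 and 70.7 and 47.8, 41.2 and 35.1 in Maver-1. Both chains were at the floor in Z-138, with differences of -3.12 ± 0.23 and -2.76 ± 0.37, while ICAM1, the ligand of LFA-1, was the gene higher in Z-138. GPR183 (EBI2), a receptor that positions B cells in follicles, had 331, 387 and 518 in Z-138 and 1883, 1712 and 1755 in Maver-1 (-2.13 ± 0.13). ITGB7, a chain of gut-homing integrins, was lower in Z-138 by -1.29 ± 0.16. SELPLG, the ligand of P-selectin, was higher (1.27 ± 0.22), as were ITGA4 at 0.60 ± 0.10 and S1PR2 at 1.23 ± 0.16. CXCR4, the receptor for CXCL12, was alike, with 5078, 5423 and 4636 in Z-138 and 5694, 5112 and 5243 in Maver-1 (-0.09 ± 0.06, interval -0.22 to 0.05).

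Genes known from mantle cell lymphoma were called higher in Z-138 for 10 of 23 and in Maver-1 for 7, with a median of 0.105. SOX11, a transcription factor that marks conventional mantle cell lymphoma, had 2801, 2920.0 and 2822 in Z-138 and 456, 748 and 953 in Maver-1 (2.04 ± 0.19), and was expressed in both. In Maver-1 SOX11 varied, with NTC the lowest. DBN1, an actin-binding protein, had 1034, 1140.0 and 1058 and 182, 238 and 155 (2.49 ± 0.14). NOTCH1 had 239, 175 and 247 and 25.4, 35.5 and 51.5 (2.50 ± 0.22), while NOTCH2 was alike (-0.27 to 0.02). ROR1, a surface receptor kinase, was higher in Maver-1, with 93.2, 109 and 140.2 against 414, 362 and 404 (-1.77 ± 0.15). MTAP, a salvage enzyme next to CDKN2A, had 225, 220.1 and 266 in Z-138 and 3.4, 2.2 and 2.9 in Maver-1 (5.36 ± 0.19).

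CCND1 (cyclin D1) gave opposite answers at its 2 probe sets. The brighter read 882, 1159 and 1153 in Z-138 and 2804, 2814 and 2809 in Maver-1, a difference of -1.41 ± 0.10 (limma adjusted p = 4.05e-08). The other read 2071, 2116 and 1931 in Z-138 and 1142, 1355 and 1395 in Maver-1, a difference of 0.66. Within each probe set the arrays of the lines did not overlap, so the direction of CCND1 depends on the probe set. The CCND1 transcript is known in mantle cell lymphoma to occur in forms that differ at the 3' end, and which part each probe set reads was not tested. CCND2 was at the floor in both lines, and CCND3 did not pass (-0.34 ± 0.14).

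In the list of the cell cycle engine, called genes were fewer than among all genes tested (48.1% against 60.2%), with 7 of 27 higher in Z-138, 6 in Maver-1, 15 inside 1.5-fold and a median of -0.057. CDKN1C (p57), an inhibitor of cyclin-dependent kinases like the next pair, had 1618, 1653 and 1651 in Z-138 and 243, 233 and 262 in Maver-1 (2.73 ± 0.09). CDKN1A (p21) had 904, 1304 and 1248 and 281, 263 and 239 (2.11 ± 0.13), and CDKN1B (p27) 2361, 2235 and 2236 and 1277, 1195 and 1197 (0.90 ± 0.07). These 3 were higher in every Z-138 culture. CDK6 was higher in Z-138 as well, with 237, 157 and 123 against 49.4, 50.2 and 42.0 (1.76 ± 0.21), and CDK4 was alike (-0.13 to 0.14). MCM5, a subunit of the replicative helicase, was lower in Z-138 by -0.68 ± 0.12. TOP2A differed by -0.16 ± 0.06, turning to 0.09 with doxycycline, and MKI67 did not pass (-0.15 ± 0.10).

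Cell death genes were called in both directions, 11 of 25 higher in Z-138 and 9 in Maver-1, with a median of 0.074. BCL2L11 (BIM), at the floor in Z-138, is the furthest of the list. HRK, another BH3 protein, ran the other way, with 406, 237 and 215 in Z-138 and 26.7, 53.3 and 47.1 in Maver-1 (2.66 ± 0.26). BID, a further BH3 protein, had 399, 351 and 312 and 148, 149 and 144 (1.25 ± 0.12). The death receptor FAS was higher in Z-138, with 92.6, 83.5 and 83.9 against 27.1, 29.7 and 25.4 (1.56 ± 0.17), whereas its adaptor FADD was lower, with 176, 211 and 213 against 1084, 1179 and 1071 (-2.46 ± 0.11). The caspases joined by that adaptor differed in direction at the probe sets used, CASP10 at 1.97 ± 0.17 and CASP8 at -1.09 ± 0.10. Another probe set of CASP8 stood at 0.23. BCL2 was lower in Z-138 by -0.60 ± 0.07, and MCL1 did not pass (0.07 ± 0.09).

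Of 21 genes of MYC and ribosome biogenesis, 4 were higher in Z-138 and 2 in Maver-1, with a median of 0.032 and 16 intervals inside 1.5-fold. MYC had 1977, 1680.0 and 1130.0 in Z-138 and 1158, 1150.0 and 1239 in Maver-1 (0.40 ± 0.15, limma adjusted p = 0.0363), with overlap at the Z-138 NIKsh#2 array. RRS1, a ribosome assembly factor, was lower in Z-138 by -0.83 ± 0.10. The 30 ribosomal protein genes all had intervals inside 1.5-fold, with a median of 0.061, and the furthest was RPL14 at 0.43 ± 0.07. Glycolysis and hypoxia genes were divided, 10 of 27 higher in Z-138 and 11 in Maver-1 (median -0.026). The glucose transporters exchanged places, SLC2A3 at 64.9, 55.3 and 60.7 in Z-138 and 8.9, 6.9 and 7.9 in Maver-1 (2.54 ± 0.21) and SLC2A1 at 76.9, 77.6 and 126 and 279.7, 264 and 255 (-1.52 ± 0.18). PDK1, which shuts pyruvate dehydrogenase, was higher in Z-138 (1.81 ± 0.13), ALDOC, an aldolase, was lower (-1.91 ± 0.17), and LDHA was alike (-0.14 to 0.09).

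Of 30 chromatin and DNA methylation enzymes, 8 were higher in Z-138 and 9 in Maver-1, with a median of -0.008 and 17 intervals inside 1.5-fold. KDM5B, a demethylase of histone H3 lysine 4, stood apart, with 1008, 1170.0 and 1011 in Z-138 and 26.8, 36.7 and 18.4 in Maver-1 (5.18 ± 0.19). KDM6B, a demethylase of lysine 27, was higher in Z-138 by 1.57 ± 0.17. The acetyltransferase EP300 was lower by -0.83 ± 0.09, ARID1A, of the SWI/SNF complex, by -0.77 ± 0.09, and EED, of the Polycomb complex, by -0.84 ± 0.09. The acetyltransferase CREBBP was alike at its brightest probe set (-0.16 to 0.13), although a dimmer one stood at 1.26. DNMT1 and EZH2 stood at -0.70 ± 0.12, which passed but was 0.10 with doxycycline, and 0.03 ± 0.07, which did not pass.

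Genes usually read as markers of other lineages differed as well. CD3G, a chain of the T cell receptor complex, had 178, 104 and 145 in Z-138 and 3.2, 0.8 and 7.2 in Maver-1 (4.51 ± 0.32), and LCK, a T cell kinase also found in B cell tumours, had 116, 131 and 104 and 16.4, 25 and 17.8 (2.41 ± 0.20). PRF1 and CD247 did not pass (0.13 ± 0.17 and -0.03 ± 0.17). CD28 and LAT were higher in Z-138 by 2.09 ± 0.29 and 1.52 ± 0.36. Of 8 T and NK markers tested, 4 were called, all higher in Z-138, with a median of 0.973, while CD3D and CD3E were at the floor on every untreated array. CD3G and CD28 were at the floor on every untreated Maver-1 array, and a gene high in 1 line alone can pass the filter through that line. The direction of this count is therefore partly set by the filter. TRBC1, a T cell gene outside this list, was higher in Maver-1 (-7.11 ± 0.17). EPCAM, an epithelial adhesion protein, had 1.3, 3.5 and 3.6 in Z-138 and 251, 263 and 314 in Maver-1 (-5.61 ± 0.22), and KRT18, an epithelial keratin, 1.5, 2 and 4.5 and 70.0, 88.2 and 66.8 (-3.81 ± 0.26). PECAM1 (CD31) was on in both and lower in Z-138 (-1.48 ± 0.14), COL1A1 was higher in Z-138 (2.33 ± 0.21), and KRT8 was lower (-0.67 ± 0.24). The integrins ITGAM and ITGAX were lower in Z-138, both at -1.76, with Z-138 at the floor. PRAME, an antigen normally found in testis, had 2.4, 5.3 and 1.1 in Z-138 and 260.3, 263 and 277 in Maver-1 (-5.57 ± 0.24). It was the only one of 18 measured cancer-testis genes called, and 16 of them were below the filter.

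**Figure D3:**
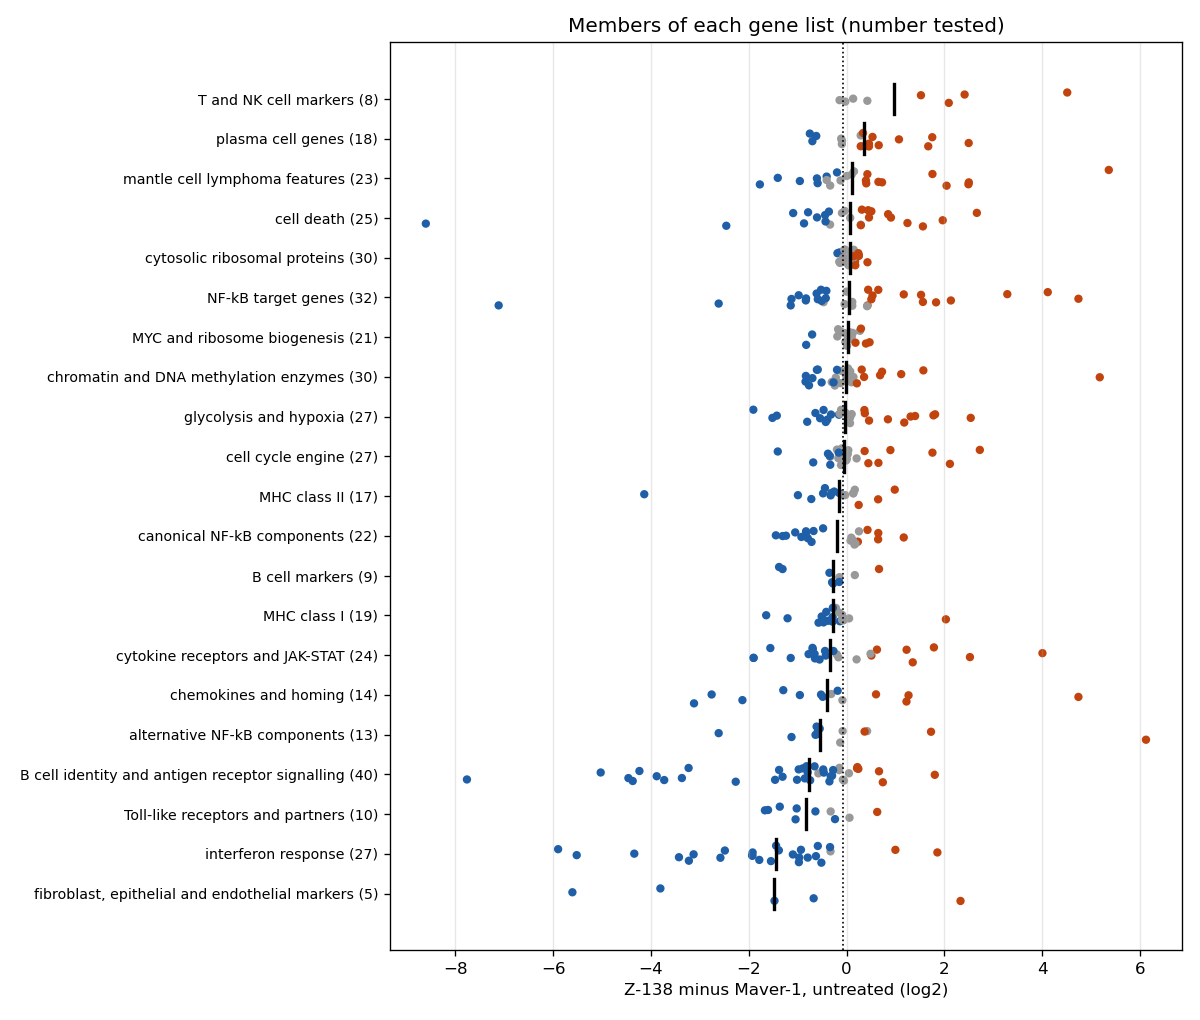
Members of each gene list with at least 5 genes tested, by their Z-138 minus Maver-1 difference on the untreated arrays (x axis, log2). Points called higher in Z-138 are orange, those called higher in Maver-1 blue and the rest grey; black bars are list medians, ordered from 0.973 to -1.475, and the dotted line is the median of all genes, -0.083.

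The differences were not spread evenly over the chromosomes. The median over the genes of chromosome 13 was 0.408, with 57.1% of its 210 genes called higher in Z-138 and 12.9% higher in Maver-1. Chromosomes 22 and 15 lay at the other end, with medians of -0.489 and -0.477 and 61.9% and 64.8% of genes called higher in Maver-1. Chromosomes 3 and 17 followed on the Z-138 side at 0.197 and 0.192, and chromosome 11 on the Maver-1 side at -0.298. The doxycycline arrays gave 0.524 for chromosome 13, -0.456 for chromosome 22 and -0.412 for chromosome 15. Both are measures of RNA, and the number of copies of each chromosome in the lines was not tested.

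**Figure D4:**
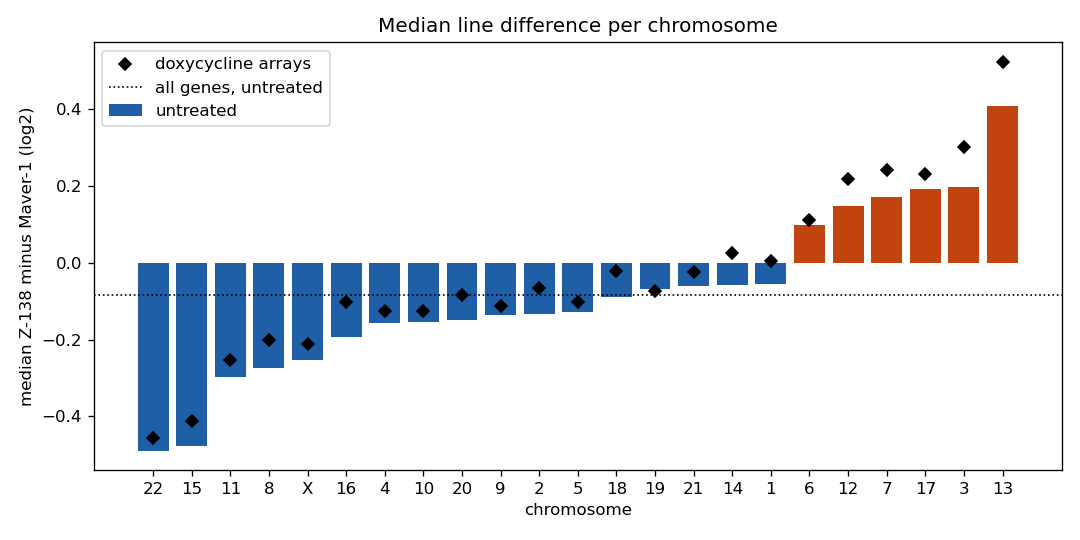
Median Z-138 minus Maver-1 difference of the genes of each chromosome (y axis, log2), as bars for the untreated arrays and diamonds for the doxycycline arrays; the dotted line is the median of all genes. Chromosomes 22 and 15 are lowest and chromosome 13 is highest in both sets of arrays.

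Over 11194 runs of 15 neighbouring tested genes, the median of run medians was -0.112, with 1% of runs below -1.194 and 1% above 0.913. The highest run lay on chromosome 19 from ECSIT to ZNF709, with a median of 3.07, and consisted mostly of genes of the KRAB zinc finger family, repressors of transposable elements and genes. Of its 15 genes 11 were called higher in Z-138 and 9 were at the floor in Maver-1. Runs hold only genes that passed the filter, so a gene at the floor in 1 line could enter through its signal in the other. ZNF844 had 254, 234 and 238 in Z-138 and 1.1, 3.1 and 0.8 in Maver-1 (5.75 ± 0.22), and ZNF823 172, 129 and 155 and 1.9, 0.1 and 1.5 (5.24 ± 0.24). ZNF700 and ZNF439 differed by 5.01 ± 0.25 and 4.84 ± 0.24. Inside the run ZNF136 went the other way, with 64.1, 63.3 and 80.5 in Z-138 and 125, 121 and 112 in Maver-1 (-0.76 ± 0.15). Another zinc finger run on chromosome 19, from ZNF253 to LINC00664, had a median of 2.11 and 13 genes called higher in Z-138. ZNF682 had 128, 149.9 and 136 in Z-138 and 3.3, 1 and 1.4 in Maver-1 (4.87 ± 0.23), ZNF93 and ZNF90 differed by 4.24 ± 0.32 and 4.31 ± 0.24, and ZNF431 stood at -0.65 ± 0.12 at its brightest probe set and at 0.63 at another. Zinc finger genes are similar in sequence, and how far their probes read each other was not tested.

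The promoters of these zinc finger genes held fewer CG dinucleotides at the median than those of all tested genes, a median of 10 over 21 promoters against 21 over all tested genes and 11 over all promoters in the table. ZNF823, at the floor in Maver-1, and ZNF136, the gene of the run that was higher there, are shown with each CG in capitals, 5' to 3' on the gene's strand. ZNF823 is at chr19:11738947-11739196 (minus) with 14 CG, and ZNF136 at chr19:12162846-12163095 (plus) with 18. The pair is an example only, since other zinc finger genes of these runs did not keep this order. ZNF709, with a mean signal of 8.03 in Maver-1, held 20 CG, and ZNF431, with 481 there, held 11. Methylation of these bases was not measured.
ZNF823: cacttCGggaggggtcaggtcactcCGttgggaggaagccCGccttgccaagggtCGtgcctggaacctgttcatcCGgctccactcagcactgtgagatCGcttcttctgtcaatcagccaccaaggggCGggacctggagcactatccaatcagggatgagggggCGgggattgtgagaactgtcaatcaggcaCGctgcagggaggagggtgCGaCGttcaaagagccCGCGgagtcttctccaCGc
ZNF136: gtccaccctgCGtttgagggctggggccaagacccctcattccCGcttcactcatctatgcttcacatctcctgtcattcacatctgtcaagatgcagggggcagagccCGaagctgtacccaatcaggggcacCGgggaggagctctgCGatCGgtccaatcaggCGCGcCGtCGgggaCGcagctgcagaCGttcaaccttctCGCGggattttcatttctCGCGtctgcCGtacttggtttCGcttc

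On chromosome 9 the run from SMARCA2 to RANBP6 had a median of 1.99 and all 15 genes called higher in Z-138. VLDLR, a lipoprotein receptor, had 776, 863 and 835 in Z-138 and 46.6, 53.9 and 35.5 in Maver-1 (4.12 ± 0.15). JAK2, a kinase of cytokine receptors, had 62.2, 85.0 and 84.0 and 32.8, 31.1 and 28.9 (1.23 ± 0.18). CD274 (PD-L1), the ligand of PD-1, had 65.7, 54.2 and 53.3 and 21.0, 31.4 and 18.6 (1.21 ± 0.22). In this run no gene was at the floor in either line, and the differences of RIC1, ERMP1 and RANBP6 were 1.99 ± 0.08, 2.35 ± 0.12 and 2.06 ± 0.13.

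Of the runs lower in Z-138, the lowest was on chromosome 1, from PRCC to DUSP23, at -2.10, with 13 genes called lower in Z-138 and 8 at the floor there. It holds the Fc receptor-like genes given above, CD1D, which presents lipids, at 10.2, 18.6 and 20.2 in Z-138 and 385, 317 and 318 in Maver-1 (-4.18 ± 0.21), and the interferon-inducible DNA sensors of the PYHIN family. Among the latter AIM2, MNDA and PYHIN1 differed by -2.75 ± 0.27, -2.59 ± 0.34 and -2.09 ± 0.34, each at the floor in Z-138, and IFI16, bright in both, by -0.53 ± 0.07. ETV3 in the same run was higher in Z-138 (0.40 ± 0.11).

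On chromosome 11 the run from SMCO4 to SESN3 had a median of -1.99 and 14 genes called lower in Z-138. MRE11, a nuclease of DNA break repair, had 169, 129 and 122 in Z-138 and 856, 866 and 975 in Maver-1 (-2.67 ± 0.13), and FUT4, a fucosyltransferase, 5, 7.5 and 3.3 and 305, 349 and 449.6 (-5.50 ± 0.22). AMOTL1, of the angiomotin family, ran against all its neighbours, with 232, 281 and 278 in Z-138 and 0.4, 0.9 and 1 in Maver-1 (6.14 ± 0.20). On chromosome X the run from TKTL1 to MPP1, which includes IKBKG, had a median of -1.84 and all 15 genes called lower in Z-138. MPP1, a membrane scaffold protein, was the furthest, with 34.9, 29.7 and 40.1 against 660.1, 551 and 456 (-3.87 ± 0.17), and EMD (emerin) differed by -1.51 ± 0.13. On the doxycycline arrays the 6 runs had medians of 2.70, 2.18 and 1.92 for the 3 higher in Z-138, and -2.34, -1.84 and -1.54 for the 3 lower.

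**Figure D5:**
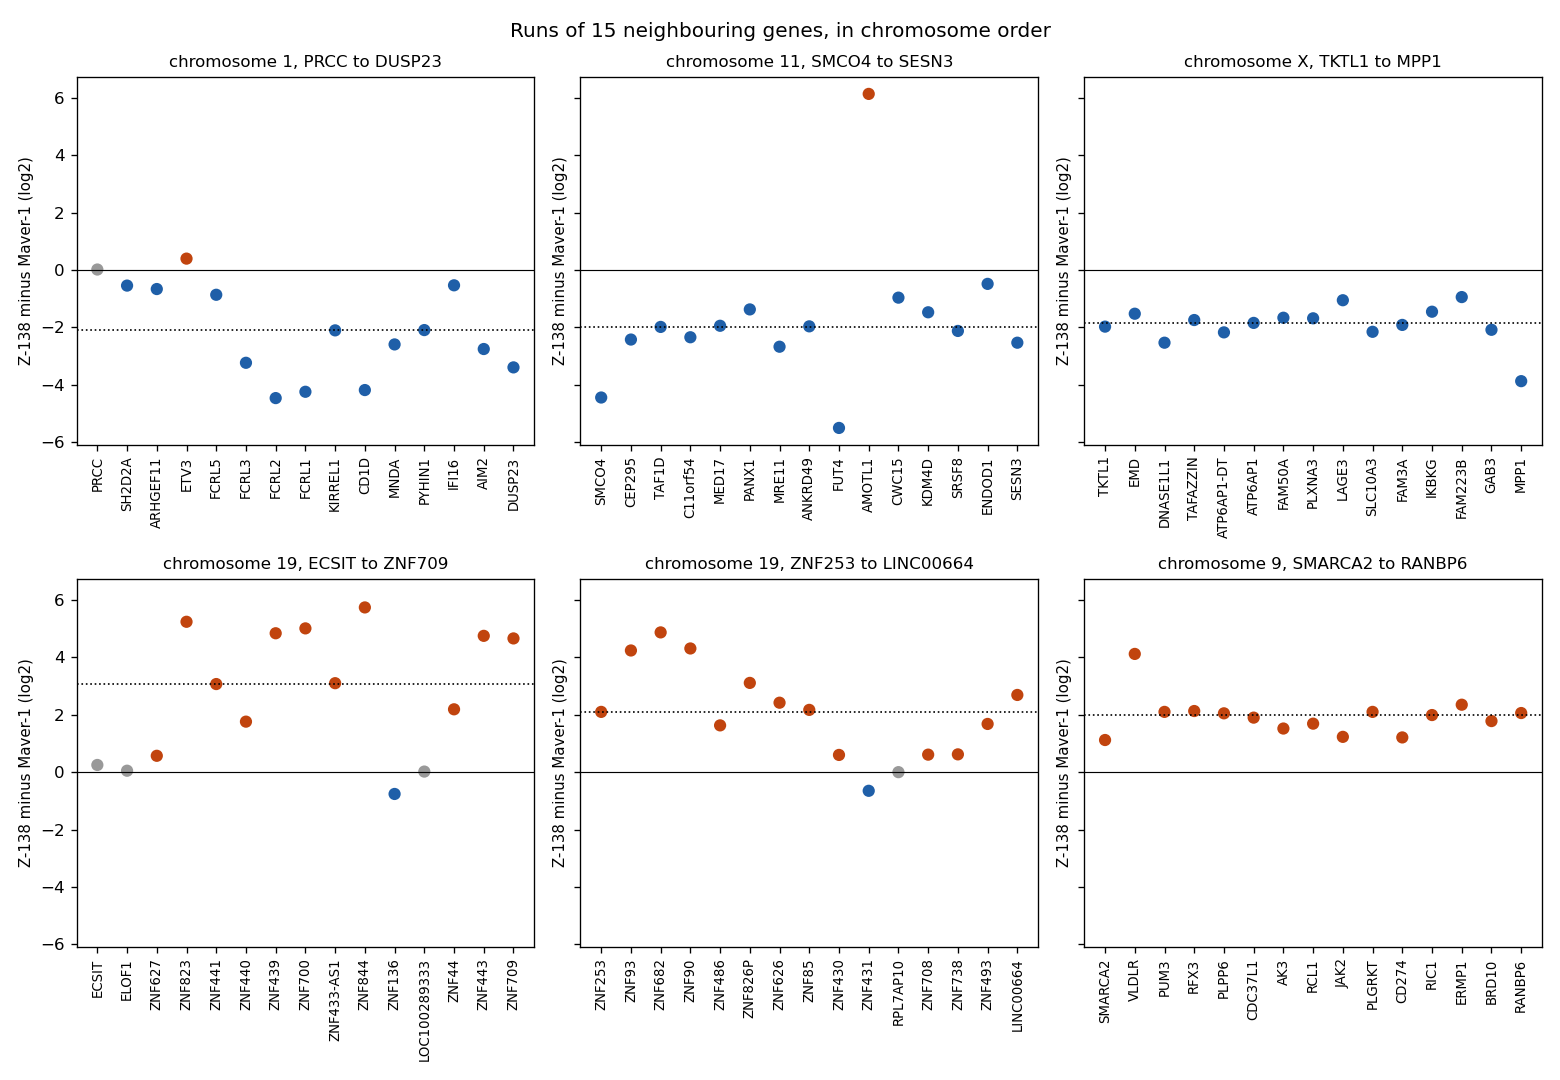
The 3 lowest (top) and 3 highest (bottom) runs of 15 neighbouring genes that do not overlap, each gene by its Z-138 minus Maver-1 difference on the untreated arrays (y axis, log2) in chromosome order. Orange and blue points were called higher in Z-138 and in Maver-1, grey points did not pass, and dotted lines are run medians, from -2.10 to 3.07.

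Some of the genes at the floor in 1 line had expressed neighbours. These were looked up after the values had been seen. Only genes that passed the filter were placed in order, and genes low in both lines were skipped. A neighbour here need not be the adjacent gene, and that it is expressed is partly set by the filter. TRAF3 at chromosome 14 was at the floor in Maver-1, while RCOR1 and EIF5, the nearest tested genes on its sides, had mean signals of 381 and 2574 there. BCL2L11 and its neighbour ACOXL were at the floor in Z-138, with means of 1.9 and 6.53, while BUB1, the next tested gene, had 2090. On chromosome 9 MTAP and C9orf72 were at the floor in Maver-1, while CAAP1, PLAA and IFT74 between them had 914, 404 and 86.5 there. CDKN2A and CDKN2B, beside MTAP, were below the filter in both lines. BCOR was at the floor in Z-138 and so was DYNLT3, 3 tested genes away, with a mean of 4.33 against 829 in Maver-1. RPGR, between them, had 209.6 in Z-138. Next to CCND1, the genes LTO1, FADD and PPFIA1 were lower in Z-138 by -2.36 ± 0.13, -2.46 ± 0.11 and -2.16 ± 0.10. CTTN, the next tested gene, was higher by 1.52 ± 0.20.

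Within each line the 3 cultures were close, with a median SD of 0.147 for Z-138 and 0.123 for Maver-1. Among genes reaching 100 on an array of their line, a 4-fold range within the line was found for 2 genes of Z-138 and 1 of Maver-1. The histone gene H3C11 had 243, 26.8 and 49.7 in Z-138, highest in NTC, and the long RNA FTX 110.0, 55.3 and 16.7. UNC13C, a protein of synaptic vesicle priming, had 801, 714 and 102 in Maver-1, lowest in NIKsh#2, and 1872, 1743 and 1997 in Z-138.

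The same cultures on the doxycycline arrays gave 4194 genes called (36.3%), of which 1994 were higher in Z-138 (17.3%) and 2200 higher in Maver-1 (19.1%). Of the genes called untreated, 3732 were called there with the same sign, 53.7% of the untreated calls and 89.0% of the doxycycline calls. The share depended on size: 29.6% of the 2038 genes called under 0.5 log2 units were called again, 73.8% of the 1505 between 1 and 2, and 218 of the 221 over 4 (98.6%). In 520 of the called genes the sign turned. Of these, 3 were called in both sets with opposite sign. JAK3, a kinase of the common gamma chain, stood at 0.62 ± 0.15 untreated and -1.01 with doxycycline, POLR2B, a subunit of RNA polymerase II, at -0.28 ± 0.07 and 0.28, and RGS1, a regulator of chemokine receptor signalling, at -0.51 ± 0.12 and 1.14. RGS1 had 407, 482 and 519 in untreated Z-138 and 629, 1792 and 1619 with doxycycline, and 782, 632 and 598 in untreated Maver-1 and 676, 521 and 481 with it. The test of the difference between the sets, limma's interaction term with culture as a block, called 0 genes (1578 at an unadjusted p under 0.05), so no gene is shown to differ between the lines in its response. The term pooled the NTC culture of each line with its NIKsh cultures, whose hairpins against MAP3K14 were induced. It therefore cannot tell a response to doxycycline from one to those hairpins.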

How the data were processed

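Total RNA from Z-138 and Maver-1 cultures was amplified and labelled with biotin, per the labels' protocols, and read on arrays whose probe sets carry Affymetrix names. The authors deposited linear signal intensity per probe set, made with MAS5 per the submitters' processing notes; the version and settings are not given in the sources used here, and detection calls were not used here. The mean without the lowest and highest 2% of probe sets was equal on all arrays, so no further scaling was applied, and precision is limited by how many arrays there are. The platform annotation gave 1 symbol to 41091 of the 54675 probe sets, several to 1801 and none to 11721, beside 62 controls; 41037 of those with 1 symbol matched RefSeq (GRCh38.p14), which gave chromosomes and promoters. Each gene was represented by the probe set of highest mean log2 signal. Of 19775 genes, the 11548 with a mean signal of at least 12.55 over the 12 arrays were tested.

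The 6 untreated arrays were compared with limma 3.58.1 in R 4.3.3, on log2(signal + 3), with an intensity trend, cell line as the only term and Benjamini-Hochberg adjustment over all genes tested at 0.05. The doxycycline arrays were fitted likewise, and the interaction over 12 arrays with culture as a block. The script was tested on simulated data. Single values were compared by exact two-sided permutation tests in Python 3.11.15 with scipy 1.17.1. Alternatives changed the pseudocount (1 or 16), the filter, the normalization, the probe set rule, the variance model, the block and the arrays, and left out each culture.

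The comparison, gene lists and rules were chosen with earlier results of these data known. The genes named were the 15 furthest apart in each direction among genes called without overlap, up to 6 called and 2 closely matched members of each list (1 list is not reported here), all alternative NF-kB components tested and called genes of the runs of neighbours, leaving out a gene of chromosome X and those of chromosome Y. Chosen after their values were seen were members below the filter, the genes beside TRAF3, BCL2L11, MTAP, BCOR and CCND1, those with a wide range within a line, and BCL2, BCL6, BLK, BTK, CASP8, CCND3, CD79A, DNMT1, EBF1, ELL2, EZH2, FCER2, HLA-DPB1, IFI27, IFIH1, IFNAR1, IKZF1, IRF4, IRF7, IRF9, ISG15, ITGA4, JAK3, LYN, MCL1, MKI67, MX1, NFKB1, NFKBIA, NFKBIE, OASL, PLCG2, POLR2B, RAG2, REL, RELA, RGS1, RIGI, S1PR2, STAT3, STAT5A, SYK, TAB2 and TLR7. The 9-letter promoter motifs were also chosen after values were seen; 10-letter forms, searched first, were replaced by them.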

Additional observations from a re-analysis of the deposited data

How the results depend on the processing

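The count of 6956 genes called stayed within 1.5 times under the other normalizations, filters, pseudocounts, variance models and the averaged probe sets (4770 to 7279), and between 6240 and 6790 when each culture was left out. The filters changed how many genes were tested. The count was 6956 of 11548 in the main fit and 4770 of 7631 with the filter at the 75th percentile. Without a filter the count was 7126 of 19775, a smaller share. On the doxycycline arrays it was 4194, with 2200 against 4017 higher in Maver-1; there the ACTB ratio was higher in Z-138, 4 of 6 cultures had induced hairpins against MAP3K14, and the cause was not tested. With the ACTB ratio as a term over 12 arrays 6660 genes were called. Of the 6956 main calls, 5598 were called there with the same sign, and 165 had the opposite sign. That fit uses more arrays than the main one, so the totals are not a like comparison. Quantile normalization moved the split to 3570 higher in Z-138 against 3499 in Maver-1. The construct as a replicate block gave 2779 and 3782, and the deviations of same-construct cultures correlated across lines at -0.14, -0.068 and -0.086, so cultures of the same construct share a name and were not treated as pairs. The interaction called 0 genes with and without the block (1578 and 1372 at an unadjusted p under 0.05) and 0 with a pseudocount of 16 (1588). Of 4504 values of the 255 genes followed, 4213 kept direction and call, 179 lost and 27 gained the call, and 61 uncalled values changed sign.

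In 24 cases the sign turned where the main or the alternative value was called, and the cause was not tested. With probe sets averaged these were CD247 (0.54), HLA-DQA1 (1.64), IFNAR2 (0.11) and IRF5 (0.086), and 889 of 3725 called genes with several probe sets above the floor had one of opposite sign. On the doxycycline arrays they were BLK (0.012), CD74 (0.073), CXCR4 (0.20), DNMT1 (0.10), H3C11 (-1.12), HLA-DPB1 (-0.038), IRF9 (0.07), JAK3 (-1.01), POLR2B (0.28), RGS1 (1.14), STAT3 (-0.21), TNIP2 (0.33) and TOP2A (0.093). With the ACTB ratio as a term they were CD74 (0.016), H3C11 (-0.31), JAK3 (-0.45), POLR2B (0.10), RGS1 (0.53), STAT3 (-0.027) and TOP2A (0.002). Leaving out 1 culture turned no called sign; the calls of B2M, CD74, CD79B, HLA-DPB1, IFNAR2, IKZF1, IRF9, KRT8, LTB, MYC, RELA and TOP2A were lost in more than 1 of these 6 fits, and those of BLK, EBF1 and H3C11 in 1.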

Other observations

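Of the 8227 genes below the filter on mean signal none was tested, and list members among them are given as values. TLR2, a receptor for bacterial lipopeptides, had 2.7, 4.9 and 5.6 in Z-138 and 16, 12.2 and 21.1 in Maver-1 (NTC, NIKsh#1, NIKsh#2). TNFAIP2, induced by TNF, had 3.0, 5.8 and 0.8 in Z-138 and 11.5, 17.4 and 10.8 in Maver-1. BCL2A1, an anti-apoptotic relative of BCL2, had 2.5, 3.6 and 0.4 in Z-138 and 10.4, 16.1 and 12.7 in Maver-1. All 3 were higher in every Maver-1 culture than in any Z-138 culture. IL6R, the receptor of IL-6, ran the other way, with 11.7, 13.8 and 14.6 in Z-138 and 7.9, 7.0 and 7.0 in Maver-1. These genes were chosen after their values were seen.

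The letters GAAANNGAA were found in 9 of 107 promoters of genes at least 16-fold higher in Maver-1 (8.41%), in 4 of 76 of those at least 16-fold higher in Z-138 (5.26%) and in 5.6% of all tested genes with a promoter in the table. HERC5 and IFI44, of the interferon list, are in the first set and among its promoters with a match, so that set is not separate from the list.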
